A study of Rattus norvegicus with 4 samples.

Results

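Kinesins are the motor proteins that walk along microtubules by burning ATP. The family holds motors that build the mitotic spindle, move chromosomes and complete cytokinesis, and motors that carry vesicles, mitochondria and ciliary components through cells that may never divide again. Cardiomyocytes of newborn rats leave the cell cycle in the days after birth, so both kinds of motor are of interest in their RNA. The kinesin genes described here are those whose symbol is Kif followed by a digit, apart from Kif20a and Kif23, which the rule leaves out. They numbered 33 of the 15731 genes in the table, and by their known roles 9 are mitotic, 13 are transport motors and 11 have other roles in cilia, signalling or microtubule regulation.

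Ventricular cardiomyocytes of wild type Wistar rats of postnatal day 1 were cultured and transfected with 1 of 4 miRNA mimics, namely miR-106b, miR-93, miR-25 and, as the control, the worm miRNA cel-miR-67, and RNA was sequenced 72 h after transfection. The labels give the age as day 1, except in a protocol that gives day 0. They give the mimic dose once as 25 nM and once in millimolar units. Each mimic had 1 library, so no difference has a replicate check and no test between mimics was possible, and the 3 comparisons with cel-miR-67 share their control library. The values are RPKM, reads per kilobase of gene model scaled to library size, and library sizes recovered from them were between 22674410 and 29749467 reads, of which listed genes held between 60.4% and 66.9%. These sizes are far above the reads per sample that the methods give. The difference was not resolved, and the width of every counting interval depends on it.

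A gene was counted as higher or lower when its RPKM differed by more than 1.3-fold, for genes with RPKM above 1.0 in the cel-miR-67 library. All 9 mitotic kinesins, 9 of the 13 transport kinesins and 4 of the 11 others passed that cutoff, 22 in all. The members just inside it were Kif26a at 1.21, Kif14 at 1.63 and Kif7 at 1.80, and those just outside it were Kif1a at 0.823, Kif21b at 0.684 and Kif24 at 0.426. Intervals in brackets after a log2 fold change are 95% exact intervals of the ratio of reads, and they cover counting error only. In bulk RNA of a whole culture, fewer cells of a type and less RNA per cell cannot be told apart.

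The 3 mimics are labelled as human miRNAs (hsa), whose own sequences were not used here. The rat miRNAs of the same names belong to a single cluster, and their mature sequences show which of them share a seed, the stretch of bases 2 to 8 that pairs with target mRNAs. The sequences are from RefSeq on the GRCr8 build, where all 3 lie on the minus strand of chromosome 12, and capitals mark the seed.
rno-miR-106b-5p: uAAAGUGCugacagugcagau
rno-miR-93-5p: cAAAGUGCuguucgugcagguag
rno-miR-25-3p: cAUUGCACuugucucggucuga
The first of these spans chr12:22157103-22157123, the second chr12:22156894-22156916 and the last chr12:22156652-22156673. Rat miR-106b and miR-93 share the seed AAAGUGC, whereas miR-25 has the seed AUUGCAC. The mitotic kinesins were highest with the mimics named after the first pair and lowest with miR-25.

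The mitotic kinesins moved in opposite directions between the mimics. With miR-106b, 7 of the 9 were higher than with cel-miR-67 and 0 were lower, with a median log2 fold change of 0.75 (range 0.27 to 0.91). Over the 11543 genes above the cutoff, 11.6% were higher and 14.1% lower with miR-106b, and the median was -0.01. With miR-93, 5 were higher and 0 lower, with a median of 0.38 (range 0.18 to 0.57), against 14.8% higher and 17.2% lower over all genes and a median of -0.01. With miR-25, 0 were higher and all 9 were lower, with a median of -1.12 (range -1.95 to -0.78), against 18.8% higher and 24.7% lower over all genes and a median of -0.03. In each of the 9 genes the library with miR-25 was the lowest, followed by cel-miR-67, then miR-93, with miR-106b the highest. The 9 genes were measured in the same 4 libraries and are not replicates of a mimic. The summed RPKM of the 9 genes was 50.6 for cel-miR-67, 85.2 for miR-106b, 66.8 for miR-93 and 22.9 for miR-25. The counting interval held 0 for Kif18a and Kif18b with miR-93 and for no other mitotic kinesin with any of the 3 mimics. With a pseudocount of 1 RPKM the number higher with miR-93 was 2 instead of 5, and with a 1.5-fold cutoff it was 0.

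**Figure D1:**
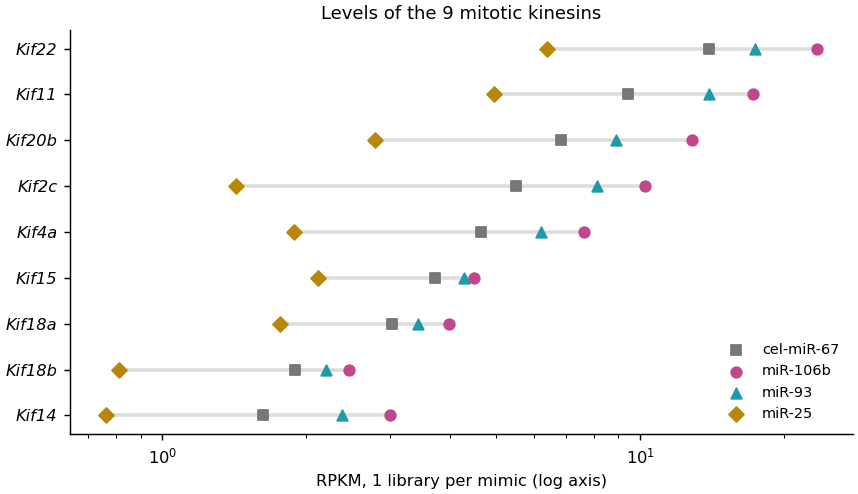
RPKM of the 9 mitotic kinesins in each of the 4 libraries, on a log axis, with 1 point per library and a grey line from the lowest to the highest. In every row the miR-25 point is leftmost and the miR-106b point is rightmost, from 6.39 to 23.4 for Kif22 and from 0.760 to 2.99 for Kif14.

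Among the motors that form and balance the spindle, Kif11 (Eg5), which slides antiparallel microtubules apart to separate the poles, was at RPKM 9.42 for cel-miR-67, 17.2 for miR-106b, 14.0 for miR-93 and 4.95 for miR-25. The reads behind these values were 1011, 2427, 1803 and 638. Kif11 had log2 fold changes of 0.87 (0.77 to 0.98), then 0.57 (0.45 to 0.68) and lastly -0.93 (-1.07 to -0.79) over the control, past the cutoff with each mimic. Kif15, which can maintain a bipolar spindle alongside Kif11, was at RPKM 3.72 for cel-miR-67, 4.48 for miR-106b, 4.28 for miR-93 and 2.12 for miR-25. Kif15 had the smallest mitotic log2 fold change with miR-106b, 0.27 (0.09 to 0.45), and stayed within 1.3-fold with both mimics of the shared seed, but with miR-25 it was 1.76-fold lower. The counting intervals of Kif11 and Kif15 with miR-106b did not overlap.

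Kif2c, which strips tubulin from microtubule ends at centromeres and so corrects faulty attachments, showed the largest change of any mitotic kinesin. Its RPKM was 5.49 for cel-miR-67, 10.2 for miR-106b, 8.10 for miR-93 and 1.42 for miR-25, where the reads numbered 450, 1098, 799 and 140. With miR-25 it was 3.86-fold lower, a log2 fold change of -1.95 (-2.23 to -1.67), and with miR-106b 1.86-fold higher. The motors that act on chromosome position and microtubule length at the plus end changed less than Kif2c with each mimic. Kif18a, which dampens chromosome movements at the metaphase plate, was at RPKM 3.03, 3.98, 3.43 and 1.77 in the same library order. Kif18b, which limits astral microtubules, was at RPKM 1.89, 2.45, 2.19 and 0.813. With miR-25 Kif18b was 2.33-fold lower, a log2 fold change of -1.22 (-1.60 to -0.85), and Kif18a was 1.71-fold lower. Kif18a passed the cutoff with miR-106b at a log2 fold change of 0.40 (0.18 to 0.61), and Kif18b lay just under it at 0.38 (0.10 to 0.65), although it passed once values were centred on the median gene. With a pseudocount of 1 RPKM the value of Kif18a was 0.31, within 1.3-fold.

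The chromokinesins, which bind DNA and push chromosome arms, included the most abundant mitotic motor. Kif22 was at RPKM 13.9 for cel-miR-67, 23.4 for miR-106b, 17.4 for miR-93 and 6.39 for miR-25, where the reads numbered 743, 1642, 1119 and 410. It was 1.68-fold higher with miR-106b and 2.18-fold lower with miR-25, and within 1.3-fold with miR-93 at 1.25-fold. Kif4a, which also shortens the microtubules of the central spindle together with Prc1, was at RPKM 4.65, 7.61, 6.19 and 1.88 in the same order. Kif4a passed the cutoff with each mimic, at 0.71 (0.57 to 0.85) for miR-106b, 0.41 (0.27 to 0.56) for miR-93 and -1.31 (-1.51 to -1.10) for miR-25 on the log2 scale.

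Of the motors of late mitosis, Kif20b, needed to finish cytokinesis, showed the largest log2 fold change with miR-106b, 0.91 (0.80 to 1.02). It was at RPKM 6.83 for cel-miR-67, 12.8 for miR-106b, 8.91 for miR-93 and 2.79 for miR-25. Kif14, which works at the midbody with citron kinase, was the least abundant mitotic motor in the control, at RPKM 1.63, 2.99, 2.37 and 0.760 in the same order. It was 1.84-fold higher with miR-106b, 1.46-fold higher with miR-93 and 2.14-fold lower with miR-25. The motors of the spindle, the chromosomes and the midbody were thus all lower with miR-25, and the low response to miR-106b was seen in Kif15, Kif18a and Kif18b.

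**Figure D2:**
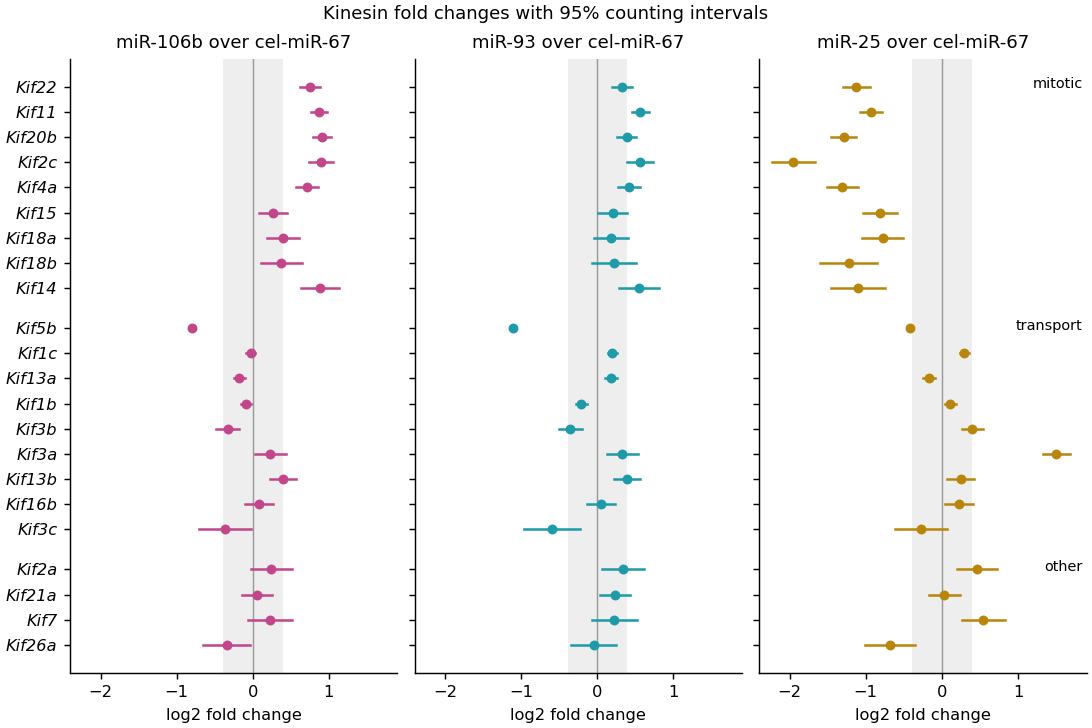
Log2 fold change of RPKM over cel-miR-67 for the 22 kinesins above RPKM 1.0 in the control, with 95% exact counting intervals as bars, 1 panel per mimic, and the grey band marking the range within 1.3-fold. The mitotic block lies right of 0 with miR-106b and miR-93 and left of the band with miR-25, while most transport motors lie in or at the edge of the band, apart from Kif5b with every mimic, Kif3c with miR-93 and Kif3a with miR-25.

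Because the mimics were compared with a single control library, the mimics were also compared with each other, which leaves that library out of the ratio. With miR-93 over miR-106b, which share a seed, 0 mitotic kinesins were higher and 2 were lower, Kif22 at -0.43 (-0.54 to -0.32) and Kif20b at -0.53 (-0.63 to -0.43), against 7.46% higher and 9.04% lower over the 11542 genes tested. The median was -0.31, and the intervals of 7 of the 9 lay below 0, with Kif15 and Kif18b the exceptions. With miR-25 over miR-106b all 9 mitotic kinesins were lower and 0 were higher, with a median of -1.88 (range -2.84 to -1.08), against 22.2% higher and 24.4% lower over all genes. Kif2c was 7.18-fold lower with miR-25 than with miR-106b. Of the 9 transport kinesins, 0 were past the cutoff between miR-93 and miR-106b in either direction, and 3 were higher and 0 lower with miR-25 than with miR-106b, namely Kif3a, Kif3b and Kif5b.

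As a sum, markers of cycling cells of any type moved in the same direction as the mitotic kinesins. The summed RPKM of Mki67, Top2a, Ccnb1, Ccna2 and Cdk1, all 5 of them found and none at 0, was 96.1 for cel-miR-67, 187 for miR-106b, 148 for miR-93 and 41.6 for miR-25. This sum was 1.94-fold that of the control for miR-106b, 1.54-fold for miR-93 and 0.433-fold for miR-25, beside 1.69-fold, 1.32-fold and 0.452-fold for the summed mitotic kinesins. Of the 5 markers, 5 were higher with miR-106b and 3 with miR-93, against 11.6% and 14.8% over all genes. With miR-25, 4 were lower, against 24.7%. Ccnb1 had the largest rise with miR-106b and miR-93 and was within 1.3-fold with miR-25. It was at RPKM 10.4 for cel-miR-67, 46.1 for miR-106b, 36.9 for miR-93 and 10.2 for miR-25. Markers of cell types changed as well, and their part in the kinesin results was not tested. The 7 cardiomyocyte markers found, of 8 listed, summed to RPKM 6009 for cel-miR-67, 5713 for miR-106b, 5629 for miR-93 and 3681 for miR-25, so markers of the labelled cell type were abundant in every library. With miR-25 all 7 were lower, against 24.7% over all genes. Tnni3 was at RPKM 351 for cel-miR-67, 543 for miR-106b, 495 for miR-93 and 15.9 for miR-25. The 8 fibroblast markers summed to 821, 637, 743 and 317 and the 4 smooth muscle markers to 745, 686, 583 and 2051 in the same order. Of the fibroblast markers, 5 were lower and 0 higher with miR-106b, and 4 were lower and 0 higher with miR-93. Over all genes 14.1% were lower with miR-106b and 17.2% with miR-93. With miR-25, 7 fibroblast markers were lower and 1 was higher, Lum, at RPKM 5.52 for cel-miR-67 and 10.1 for miR-25. All 4 smooth muscle markers were higher with miR-25, against 18.8% over all genes. Macrophage and endothelial markers summed to at most 9.13 and 4.71 in any library, neuron and Schwann cell markers to at most 8.58, and no marker found was at 0.

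**Figure D3:**
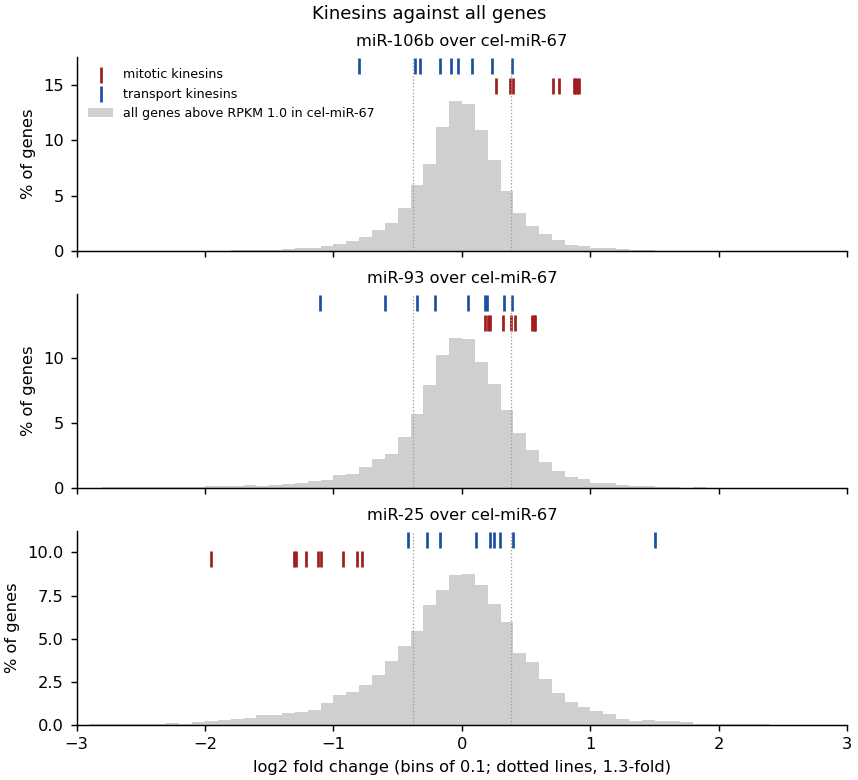
Distribution of log2 fold changes over cel-miR-67 for all 11543 genes above RPKM 1.0 in the control (grey, % of genes per bin of 0.1), with each mitotic and transport kinesin as a tick above it, and dotted lines at 1.3-fold. The mitotic ticks lie right of the centre with miR-106b and miR-93 and in the left tail with miR-25, where the 9 values run from -1.95 to -0.78.

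Partners of the mitotic motors were followed in lists that hold no member of the family above. Of 9 spindle partners, 6 were higher and 0 lower with miR-106b, 1 was higher and 0 lower with miR-93, and 0 were higher and 6 lower with miR-25, with medians of 0.48, 0.18 and -0.90. Over all genes the shares were 11.6% higher and 14.1% lower for miR-106b, 14.8% higher and 17.2% lower for miR-93, and 18.8% higher and 24.7% lower for miR-25, so the single partner higher with miR-93 is no more than that background. Prc1, which bundles the central spindle and is the partner of Kif4a, was at RPKM 34.7 for cel-miR-67, 58.8 for miR-106b, 39.2 for miR-93 and 11.0 for miR-25. Nusap1, a microtubule bundling protein, was past the cutoff with each mimic, at RPKM 3.70, 6.48, 4.94 and 1.20 in the same order. Kntc1, a kinetochore protein, had the lowest value among them with miR-25, -1.96 (-2.13 to -1.79). With miR-106b and miR-25, kinesins without a Kif number split by role. Kifc1, a minus-end motor that focuses spindle poles, had log2 fold changes of 0.65 for miR-106b, 0.35 for miR-93 and -1.33 for miR-25, and Cenpe, the motor of the kinetochore, 0.72, 0.33 and -1.33. With miR-93 both Kifc1 and Cenpe were within 1.3-fold, as was Kifc3, a minus-end motor of cell junctions and membranes. Unlike them, Kifc3 was also within 1.3-fold with miR-106b and was higher with miR-25, at 0.79 (0.55 to 1.03). Kifc2 was not above the cutoff.

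The proximal promoters of the mitotic kinesins are shown because these genes moved together. Many genes expressed in late cell cycle carry a CHR (cell cycle genes homology region) near their start, and its letters TTTGAA or TTTAAA were searched on both strands, so that TTCAAA also counts. Of the 8 mitotic kinesins with a promoter entry, 6 held these letters within 250 bases before to 50 after the start in any of their entries. The same held for 0 of 8 transport kinesins and 0 of 2 others. Among all 33469 rat promoters of that length 28.25% held them, counted by entry and not by gene, so these shares are not counted alike. The lines give 65 bases, from 60 before the start, of the 5 with a match there, from RefSeq on GRCr8, with the letters in capitals.
Kif2c: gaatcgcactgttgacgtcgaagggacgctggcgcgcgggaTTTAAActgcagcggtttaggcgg
Kif22: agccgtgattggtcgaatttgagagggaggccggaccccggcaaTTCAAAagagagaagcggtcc
Kif4a: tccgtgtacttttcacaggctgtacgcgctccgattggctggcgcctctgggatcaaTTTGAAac
Kif11: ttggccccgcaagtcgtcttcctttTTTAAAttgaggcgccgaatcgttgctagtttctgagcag
Kif15: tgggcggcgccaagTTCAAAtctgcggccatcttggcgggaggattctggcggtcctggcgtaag
Kif2c lies at chr5:135899208-135899272 and Kif22 at chr1:191080874-191080938, both on the minus strand. On the plus strand are Kif4a at chrX:69761823-69761887, Kif11 at chr1:244536807-244536871 and Kif15 at chr8:131479344-131479408. Kif20b had its matches elsewhere in the promoter, at -116, 2 and 8 from the start. Kif18a and Kif18b held none, and Kif14 had no entry. Kif15 carries the letters and was within 1.3-fold with both mimics of the shared seed. A match of these letters is a description and not a binding site.

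The transport kinesins did not move as a group. With miR-106b, 1 of the 9 was higher and 1 lower, with a median log2 fold change of -0.09 (range -0.80 to 0.39). With miR-93, 1 was higher and 2 lower, with a median of 0.05 (range -1.10 to 0.39). With miR-25, 2 were higher and 1 lower, with a median of 0.22 and values from -0.42 for Kif5b to 2.83-fold higher for Kif3a. Counts of 1 or 2 among 9 genes lie near the shares over all genes given above. When values were scaled to the reads on listed genes, 4 transport kinesins were higher and 0 lower with miR-25, and the median was 0.37.

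Kif5b, the heavy chain of conventional kinesin, which carries mitochondria, vesicles and RNA outward along microtubules, was the most abundant kinesin in every library. It was at RPKM 233 for cel-miR-67, 134 for miR-106b, 109 for miR-93 and 175 for miR-25, where the reads numbered 17667, 13286, 9898 and 15882. The control library was thus the highest and the miR-93 library the lowest. Kif5b was 1.74-fold, 2.15-fold and 1.34-fold lower with the 3 mimics, or by log2 values of -0.80 (-0.84 to -0.77), then -1.10 (-1.14 to -1.07) and lastly -0.42 (-0.45 to -0.39). Scaled to the reads on listed genes, the value with miR-25 was -0.27, within 1.3-fold. Kif5b made up 60.0% of the summed RPKM of all 33 kinesins for cel-miR-67, 41.4% for miR-106b, 37.3% for miR-93 and 53.8% for miR-25. The summed RPKM of all 13 transport kinesins was 327 for cel-miR-67, 224 for miR-106b, 209 for miR-93 and 288 for miR-25. Without Kif5b this sum was 93.5, 90.2, 100.2 and 112.9 in the same order. Its close relatives Kif5a and Kif5c, known from neurons, were under the cutoff, at RPKM 0.151 and 0.364 in the control.

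**Figure D4:**
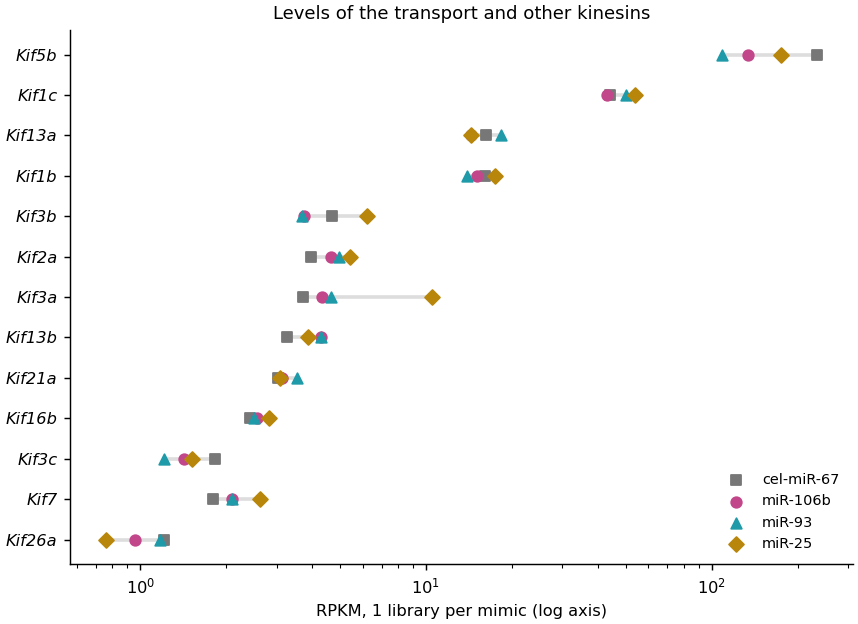
RPKM of the 9 transport kinesins and the 4 others above RPKM 1.0 in the control, 1 point per library on a log axis, with a grey line from the lowest to the highest. Kif5b is rightmost and has its control point, at 233, above all 3 mimics, and Kif3a has its miR-25 point, at 10.5, apart from the other libraries.

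The motor of intraflagellar transport, kinesin-II, is built from Kif3a, Kif3b and the accessory subunit Kifap3. All 3 of its genes were higher with miR-25, where 18.8% of all genes were higher. Kif3a and Kif3b are the transport kinesins counted above as higher with miR-25, and Kifap3 is from the list of light chains and adaptors given below. Counts higher with miR-25 in both lists lay near that share. Kif3a was at RPKM 3.70 for cel-miR-67, 4.34 for miR-106b, 4.65 for miR-93 and 10.5 for miR-25. Kif3b was at RPKM 4.70, 3.74, 3.68 and 6.21 in the same order. Kifap3 was at RPKM 10.3, 9.60, 10.9 and 21.7. The miR-25 library was the highest for each of the 3 genes, and Kif3a was 2.83-fold higher there, with a log2 interval of 1.32 to 1.68. Kif3b passed the cutoff by less, at 0.40 (0.26 to 0.54), and Kifap3 was at 1.08 (0.97 to 1.18). With the mimics of the other seed all 3 were within 1.3-fold, although Kif3a passed it with miR-93 when values were scaled to the reads on listed genes. Kif3c, which can replace Kif3b in the complex with Kif3a, did not follow them, at RPKM 1.83 for cel-miR-67, 1.43 for miR-106b, 1.21 for miR-93 and 1.51 for miR-25, and it was 1.51-fold lower with miR-93 with an interval of -0.97 to -0.23 on the log2 scale. The calls of Kif3b with miR-25 and Kif3c with miR-93 were lost with a pseudocount of 1 RPKM. The smooth muscle markers also were highest with miR-25, and their part in the result was not tested.

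The motors of endosomes and secretory vesicles lay within or close to the cutoff. Kif1c, a vesicle motor and the next most abundant kinesin, was at RPKM 43.9 for cel-miR-67, 43.0 for miR-106b, 50.2 for miR-93 and 53.8 for miR-25, within 1.3-fold throughout, although with miR-25 it passed at 0.44 when values were scaled to the reads on listed genes. Kif13a, which moves recycling endosomes, was at RPKM 16.2, 14.4, 18.4 and 14.4 in the same order and was also within the cutoff. Kif13b, its paralog, was at RPKM 3.26, 4.28, 4.28 and 3.87. It passed the cutoff by a small margin with miR-106b, at 0.39 (0.23 to 0.56), and with miR-93, at 0.39 (0.22 to 0.56), and both calls were lost with a pseudocount of 1 RPKM. The remaining transport kinesins above the cutoff, Kif1b and Kif16b, stayed within 1.3-fold with each mimic, with log2 fold changes between -0.21 and 0.22.

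Among the 4 other kinesins above the cutoff, 0 were past 1.3-fold with either mimic of the shared seed, and 2 were higher and 1 lower with miR-25, where 18.8% of all genes were higher and 24.7% lower. With 4 genes these counts say nothing particular of the group. Kif2a, a microtubule depolymerase related to Kif2c that acts in interphase cells and at spindle poles, was at RPKM 3.95 for cel-miR-67, 4.66 for miR-106b, 4.97 for miR-93 and 5.42 for miR-25. Its log2 fold change with miR-25 was 0.46 (0.19 to 0.73), against -1.95 for Kif2c. Kif7, which acts at the tip of the primary cilium in Hedgehog signalling, was at RPKM 1.80, 2.10, 2.09 and 2.62, with 0.54 (0.26 to 0.83) for miR-25. Kif26a, a kinesin without motor activity, was at RPKM 1.21, 0.955, 1.17 and 0.757, with -0.68 (-1.01 to -0.35) for miR-25. These 3 calls were lost with a pseudocount of 1 RPKM, and Kif21a was within 1.3-fold with each mimic.

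Kinesin light chains and the adaptors that tie motors to cargo were followed in a list of 18 genes, of which 15 were found and above the cutoff. With miR-106b 0 were higher and 1 lower, with miR-93 0 were higher and 3 lower, and with miR-25 3 were higher and 2 lower, with medians of -0.22, -0.14 and 0.11. The 3 lower with miR-93 and the 3 higher with miR-25 lie near the shares over all genes, 17.2% and 18.8%. Trak2, which links kinesin-1 to mitochondria, had the lowest value, at RPKM 44.8 with cel-miR-67 and 14.6 with miR-25, a log2 fold change of -1.62 (-1.68 to -1.56). Its paralog Trak1 was lower with miR-93, at -0.47. The light chain Klc2 was lower with miR-93, at -0.44, and higher with miR-25, at 0.45. Klc1, the light chain at RPKM 22.0 in the control, was within 1.3-fold with each mimic, as was Klc4, while Kif5b was past it with each.

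Dynein, the motor that walks the opposite way, and its activator dynactin were followed in 22 genes, of which 21 were above the cutoff. With miR-106b 2 were higher and 1 lower, with miR-93 2 were higher and 3 lower, and with miR-25 4 were higher and 1 lower, with medians of -0.07, 0.08 and 0.14. These counts lie near or under the shares over all genes, which were 11.6% higher and 14.1% lower for miR-106b, 14.8% higher and 17.2% lower for miR-93, and 18.8% higher and 24.7% lower for miR-25. The light intermediate chain Dync1li2 was lower with miR-106b, at -0.56, and with miR-93, at -0.75, and higher with miR-25, at 0.38. The light chain Dynll2 was higher with miR-106b, at 0.83, and with miR-93, at 1.01. Dynlt3, another light chain, was lower with miR-25, at -1.75.

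**Figure D5:**
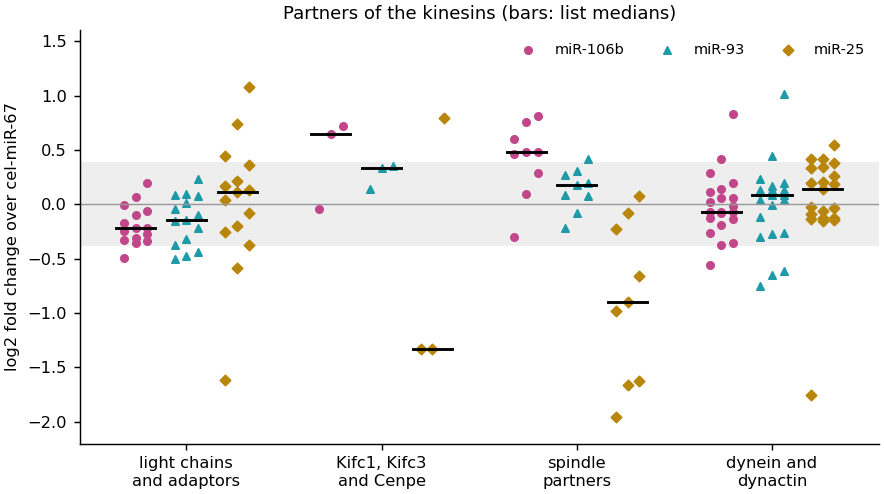
Log2 fold changes over cel-miR-67 of the genes above RPKM 1.0 in the control in 4 lists of partners, 1 point per gene and mimic, with a black bar at each list's median and the grey band marking the range within 1.3-fold. The spindle partners lie mostly above the band with miR-106b and mostly below it with miR-25, with medians of 0.48 and -0.90, and the medians of the adaptors and of dynein lie within the band.

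The 11 members under the cutoff were at RPKM between 0 and 0.823 in the control, and 8 of them had over 3 reads in all 4 libraries. They comprised the transport kinesins Kif1a, Kif5a, Kif5c and Kif17, known mainly from neurons, and Kif6, Kif9, Kif12, Kif21b, Kif24, Kif26b and Kif27. Kif9 had 0 reads with cel-miR-67 and 10 with miR-25. Kif24, which restrains cilium assembly in cycling cells, was at RPKM 0.426 for cel-miR-67, 0.725 for miR-106b, 0.403 for miR-93 and 0.272 for miR-25. For Kif11, Kif13a, Kif18b and Kif1c, RefSeq lists a pseudogene named after the gene, and reads shared with it could be split, so their levels are less certain.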

How the data were processed

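RNA of 4 neonatal rat cardiomyocyte cultures was sequenced, 1 library per mimic. As the methods and processing notes state, the authors aligned reads with STAR 2.7 to Rnor 6.0 and computed RPKM with edgeR. The program that counted reads on genes is not given in the sources used here. The deposited RPKM values were used as they are, without a pseudocount. The methods state that gene counts were rounded before RPKM, so ratios of RPKM gave back library sizes and whole, possibly rounded, counts (tolerance 0.0001) for 15731 of 15731 genes. Whether the counts were whole before rounding is not known. For 654 of the genes the recovered reads were multiplied by a common factor. The recovery was tested on whole counts simulated from the recovered lengths and library sizes. That test cannot show that the sizes or the whole counts of the real data are right. Intervals are Clopper-Pearson intervals (95%) of the share of a gene's reads in the mimic library. Fold changes were computed for genes with RPKM above 1.0 in cel-miR-67 and counted past 1.3-fold. With 1 library per mimic no count test was run.

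The members and lists were chosen with earlier results of these data known. Mitotic kinesins above the cutoff are given in every library, as are transport and other kinesins past 1.3-fold with a mimic or among the 3 highest in the control. Symbols listed more than once (176) did not enter the partner and marker lists. Alternatives were other cutoffs, filters, pseudocounts and scalings, and Kif2a counted as mitotic. Intervals were computed with scipy 1.17.1 under Python 3.11.15, tables with pandas 2.3.3 and numpy 2.4.6, and plots with matplotlib 3.10.9.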

Additional observations from a re-analysis of the deposited data

Results flagged for a closer look

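Members under RPKM 1.0 with cel-miR-67 entered the comparisons only in the alternative with no RPKM filter, and 4 of them were above it with a mimic. They are listed because they were above RPKM 1.0 with a mimic, over 1.3-fold higher there and with an interval above 0. Those traits thus follow from the choice, and the share of all genes that would be listed in this way was not computed. Kif26b, an atypical kinesin, was at RPKM 0.184 with cel-miR-67 and 1.24 with miR-93, a log2 fold change of 2.75 (2.21 to 3.34), from 31 and 251 reads. It was at RPKM 0.847 with miR-106b and 0.826 with miR-25, so it was higher with all 3 mimics. Kif21b, a motor that also limits microtubule growth, was at RPKM 0.684 with cel-miR-67, 1.42 with miR-106b and 1.73 with miR-93, log2 fold changes of 1.05 (0.70 to 1.41) and 1.34 (1.00 to 1.70), and at 0.808 with miR-25. Kif5c, a kinesin-1 heavy chain known from neurons, was at RPKM 0.364 with cel-miR-67 and 1.11 with miR-25, a log2 fold change of 1.61 (1.17 to 2.06), whereas Kif5b was lower with miR-25. Kif1a, a motor of synaptic vesicle precursors, was at RPKM 0.823 with cel-miR-67 and 1.09 with miR-25, a log2 fold change of 0.41 (0.05 to 0.77). The neuron and Schwann cell markers summed to RPKM 8.58 with cel-miR-67 and 6.68 with miR-25. These intervals cover counting error only, and no test between the libraries was possible.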

How the results depend on the processing

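No kinesin past 1.3-fold changed direction under any alternative run, whereas among values within 1.3-fold Kif1c with miR-106b went from -0.03 to 0.05 and Kif26a with miR-93 from -0.05 to 0.10 when scaled to the reads on listed genes. With a 2-fold cutoff 0 mitotic kinesins were higher with either mimic of the shared seed, and with a 1.5-fold cutoff 0 with miR-93. With a pseudocount of 1 RPKM it was 2 with miR-93, and the mitotic median with miR-25 was -0.81. With RPKM above 2.0 in both libraries 4 mitotic kinesins were left with miR-25, and all 4 were lower. Counting Kif2a as mitotic gave 1 mitotic kinesin higher with miR-25. For the transport kinesins with miR-106b, the count higher was 2 with no RPKM filter and 0 with a 1.5-fold cutoff, a 2-fold cutoff or a pseudocount of 1, and the count lower was 2 with no filter and 0 with a 2-fold cutoff. With miR-93, the count higher was 0 with a 1.5-fold cutoff, a 2-fold cutoff or a pseudocount of 1 and 2 when scaled to reads on listed genes, and the count lower was 1 with RPKM above 2.0, a 2-fold cutoff or a pseudocount of 1. With miR-25, the count higher was 5 with no filter, 1 with a 1.5-fold cutoff, a 2-fold cutoff or a pseudocount of 1, and 4 when scaled, and the count lower was 0 with a 1.5-fold cutoff, with a 2-fold cutoff and when scaled, where the median was 0.37. The cause of these changes was not tested beyond what each setting does by its construction. Scaling to listed genes moved every log2 value up by 0.08 for miR-106b, 0.15 for miR-93 and 0.15 for miR-25. It moved the share of genes that were higher, among those past 1.3-fold, from 45.1% to 60.9% in the first of these, from 46.2% to 68.8% in the next and from 43.2% to 61.2% in the last. It took 7 of 66 values of single kinesins across the cutoff, and a pseudocount of 1 took 11. Centring on the median gene, a pseudocount of 0.1 and a call beyond counting error left all 18 counts and medians near their values. RPKM above 1.0 in both libraries, or in the mean of all 4, did the same. Counts stayed within 1.5 times, and the mitotic median with miR-25 stayed between -1.12 and -1.09. Depth limited the low members, since mitotic kinesins had between 92 and 2427 reads in a library but Kif9, Kif12 and Kif17 had at most 12. No paired analysis was possible because each mimic had 1 library, and for the same reason no replicate could be left out.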
